A study of Homo sapiens with 6 samples.

Results

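The genes described here are the solute carriers of families SLC4, SLC5, SLC9, SLC12, SLC13, SLC17, SLC22, SLC34 and SLC47, which move sodium, bicarbonate, glucose, phosphate and organic ions across membranes and are well known from the kidney tubule. Members were taken by symbol, and 63 of the 30267 genes in the deposited table belonged to these families. The data were bulk RNA-seq profiles of SW839, an established renal cell carcinoma line, in which 3 libraries carried an shRNA against RNF25 (shRNF25), an E3 ubiquitin ligase, and 3 carried the pLKO vector as control (shControl). The methods describe lentiviral delivery of such hairpins followed by puromycin selection, while the labels speak of transfection. The shRNF25 library names share the letter B and differ by a number, and the labels give no hairpin sequence, time after delivery or batch. The control library names begin with PLKO but follow no common numbering, and the labels do not say whether both groups were prepared alike. The series text speaks of biological triplicates without naming separate cultures, so that p-values measure the spread between these libraries, which may be technical. The treatment label of all 6 samples, controls included, names the shRNF25 plasmid, and the groups therefore rest on titles, genotype labels and library names. In bulk RNA, fewer cells with a transcript and less transcript per cell cannot be told apart.

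Solute carriers do not hydrolyse ATP. Many of them exchange or cotransport ions along gradients that the sodium pump maintains. The direction of net transport depends on the ions that each carrier couples and on their gradients. In the proximal tubule, sodium-proton exchange at the brush border and sodium-bicarbonate cotransport at the basolateral side recover bicarbonate, while SGLT, NaPi and organic ion carriers recover glucose and phosphate and secrete drugs. Outside the kidney many of the same families set intracellular pH and cell volume, and these housekeeping members are found in most epithelial cells.

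Between 18647460 and 19943154 reads per library fell on genes. Genes with any read numbered 25247 to 25683 in the shControl libraries and 26581 to 27052 in the shRNF25 libraries. The part of this difference in the rises of members near the floor was not tested. RNF25 itself was lower in every shRNF25 library, with normalized counts of 694.2, 533.5 and 536.4 in shControl and 214.1, 245.7 and 265.0 in shRNF25 (log2 fold change −1.27, SE 0.150, limma adjusted p = 0.000585). The mitochondrial transcript MT-CO1 took 4.54% of reads in shControl replicate 1 and 1.46% to 1.80% in the other 5 libraries. Without that library 5 members were called lower and 7 higher, against 4 and 7 with it. The line expressed the epithelial keratin gene KRT8 at 22206 to 38009 and EPCAM at 4205 to 5912 normalized counts, whereas HNF4A, a defining transcription factor of the proximal tubule, was at 0.924 to 3.64. The leukocyte markers, 10 genes, summed to 69.6 to 86.3 in shControl and 76.3 to 108 in shRNF25, with CD3E at 0 to 1.08. For 7 endothelial genes the sums were 506 to 704 and 502 to 654, and for 9 fibroblast genes 1129 to 1305 and 893 to 1037. PECAM1 made up most of the endothelial sums, at 350 to 466 in shControl and 399 to 549 in shRNF25. Most of the fibroblast sums was COL1A1, at 1090 to 1258 and 848 to 992 (log2 fold change −0.37, limma adjusted p = 0.0479). Within the endothelial list CDH5 fell from 73.0, 103 and 199 to 3.64, 8.31 and 5.72 (log2 fold change −4.12, limma adjusted p = 0.000213) and KDR rose from 26.5, 29.8 and 17.3 to 88.4, 81.3 and 83.9 (1.78, limma adjusted p = 0.00116). The leukocyte gene ITGAM (0.86, limma adjusted p = 0.0465) and VIM, in the carcinoma list (1.31, limma adjusted p = 0.00805), also rose. The part of these levels in the members' values was not tested.

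Of the 63 members, 39 were tested, having 10 or more normalized counts in 3 or more libraries. A member was called when its adjusted p was below 0.05 and its fold change was at least 1.5. On this rule 4 tested members (10.3%) were lower in shRNF25, where 7.1% of all 16554 tested genes were, and 7 (17.9%) were higher, where 8.65% of all tested genes were. All 3 shRNF25 libraries lay below all shControl libraries for 7 tested members (17.9%, against 21.8% of all genes) and above them for 15 (38.5%, against 20.7%). The median log2 fold change of the tested members was 0.19, compared with −0.01 for all tested genes. Setting the 1 gene at its detection floor to its bound could not move this median, since the bound also lay above it. Of the tested members, 3 (SLC4A10, SLC5A7 and SLC13A3) passed the filter only through shRNF25 and 1 (SLC13A4) only through shControl, so that their differences were partly fixed by the filter. The bicarbonate family SLC4 held 5 of the 11 called members, 1 lower and 4 higher. The organic ion family SLC22 held 3, of which 2 were lower and 1 higher, SLC5 and SLC12 held 1 higher member each, and SLC13 held 1 lower member. No tested member of SLC9, SLC17 or SLC34 was called, with 7, 2 and 1 tested, and neither SLC47 member passed the filter.

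**Figure D1:**
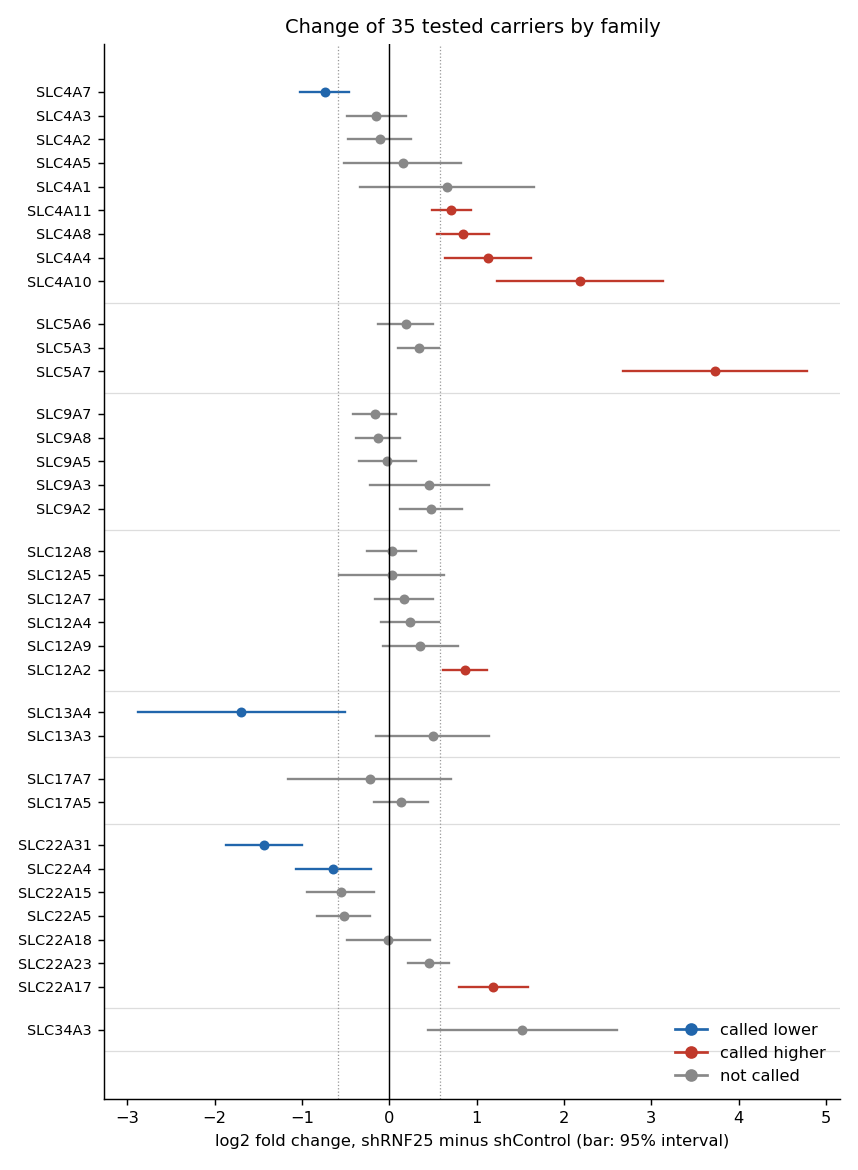
Log2 fold change (shRNF25 minus shControl, on the log2(normalized count + 1) scale) of 35 of the 39 tested members, in rows by family, with bars for the 95% interval, dotted lines at 1.5-fold and color for calls. The point of SLC5A7 is a fitted value against controls at the floor. The 7 members called higher include 4 of SLC4, and the 4 called lower lie between −0.64 and −1.70.

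The sodium-coupled bicarbonate transporters of SLC4 carry bicarbonate together with sodium, and their called members moved in opposite directions. SLC4A7 (chr3:27372721-27484420, GRCh38), the electroneutral sodium-bicarbonate cotransporter NBCn1, had 2244, 1684 and 1897 normalized counts in shControl and 1178, 1094 and 1187 in shRNF25. All shRNF25 libraries were lower than all shControl libraries, and the difference passed the test (log2 fold change −0.74, SE 0.125, limma adjusted p = 0.00358). SLC4A4 (chr4:71062667-71572087), the electrogenic cotransporter NBCe1 of the proximal tubule basolateral membrane, read 31.0, 28.7 and 45.3 in shControl. In shRNF25 it read 74.7, 73.9 and 80.1, above every control library (log2 fold change 1.13, SE 0.220, limma adjusted p = 0.00693). SLC4A8 (chr12:51391317-51515763), a sodium-driven chloride-bicarbonate exchanger, also rose, from 214.5, 206.2 and 181.3 to 350.8, 392.5 and 340.3 (0.85, SE 0.133, limma adjusted p = 0.00258). SLC4A10 (chr2:161424332-161985282), a related transporter best known from neurons, was represented by 3, 2 and 5 reads in shControl and by 18, 15 and 31 in shRNF25. Its groups did not overlap and the fitted log2 fold change was 2.18 (SE 0.424, limma adjusted p = 0.00684), on a level that in both groups lay at the low end of what was tested. This gene passed the filter only through shRNF25. SLC4A5, the remaining member of this role, was at 12.2 to 15.1 and 12.4 to 20.3 normalized counts and was not called, and 47.5% of its exon bases are shared with another gene on the same strand.

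Per kilobase of exon, SLC4A7 outweighed the other sodium-coupled bicarbonate transporters in both groups. The summed level of these 5 genes was 218.9 ± 29.7 normalized counts per kilobase in shControl and 152.5 ± 4.34 in shRNF25 (SD, n = 3). SLC4A7 made up 92.3% of that sum in shControl and 78.6% in shRNF25. Its level relative to the other 4 genes was 13.6, 10.7 and 11.3 in the shControl libraries and 3.93, 3.36 and 3.77 in the shRNF25 libraries. The dominant gene of this role thus fell while 3 of the 4 minor genes rose. Of these, SLC4A10 passed the filter only through shRNF25.

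The chloride-bicarbonate exchangers, which export bicarbonate, were not called. SLC4A2 (AE2), the SLC4 member with the highest level per kilobase in shControl, had 3395, 5014 and 5179 normalized counts in shControl and 4090, 4122 and 4142 in shRNF25. Its groups overlapped, and the 95% interval of the log2 difference ran from −0.47 to 0.24. The low value was that of shControl replicate 1, without which the log2 fold change was −0.31 with a limma adjusted p of 0.00753, whereas leaving out any other single library gave 0.755 to 0.991. SLC4A3 (AE3) was at 777.1 to 1160 in shControl and 828.3 to 863.6 in shRNF25, with an interval of −0.48 to 0.19. SLC4A1, the erythrocyte and intercalated cell exchanger band 3, was represented by 3, 5 and 10 reads in shControl and 13, 8 and 11 in shRNF25, with an interval of −0.33 to 1.66. SLC4A9, the family's only untested member, had 2, 13 and 9 reads against 5, 3 and 3.

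SLC4A11 (chr20:3227417-3239559), a family member mutated in corneal endothelial dystrophy, was among the most abundant members. It read 1911, 1886 and 2120 normalized counts in shControl and 3203, 3209 and 3253 in shRNF25 (log2 fold change 0.71, SE 0.0983, limma adjusted p = 0.00136). All shRNF25 libraries were above all shControl libraries, and per kilobase its mean level went from 454 to 741. In shRNF25 it therefore had the highest level of any member, ahead of SLC4A2, which had the highest level in shControl.

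**Figure D2:**
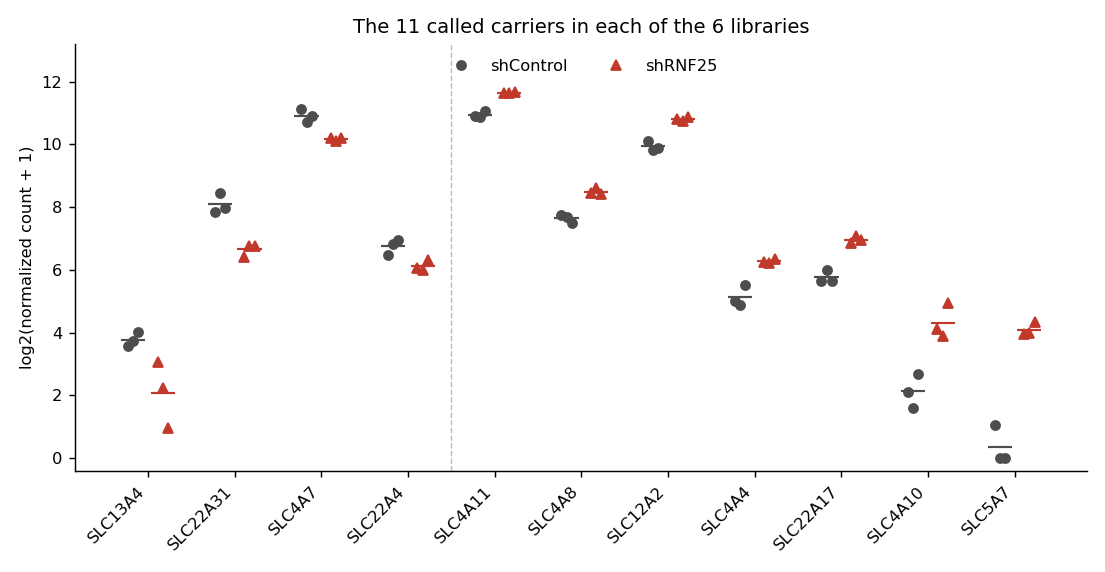
Expression of the 11 called members in each library as log2(normalized count + 1), with shControl libraries as circles, shRNF25 libraries as triangles, group means as short lines, and members called lower left of the dashed line. The groups do not overlap for any of the 11, and SLC5A7 is at 0 in 2 of the shControl libraries.

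Cation-chloride cotransporters set cell volume and intracellular chloride, NKCC members by taking chloride up and KCC members by releasing it. SLC12A2 (NKCC1, chr5:128083766-128189688), the widely expressed sodium-potassium-chloride cotransporter, was the called member of this family. Its normalized counts were 1092, 905.0 and 943.3 in shControl and 1779, 1700 and 1883 in shRNF25, with no overlap. The log2 fold change was 0.87 (SE 0.113, limma adjusted p = 0.00100). SLC12A1 (NKCC2), the target of loop diuretics in the thick ascending limb, had 0, 0 and 1 reads in shControl and 2, 5 and 0 in shRNF25, and was not tested.

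No KCC member was called. SLC12A7 (KCC4) was the most abundant of the family per kilobase and read 2201, 2998 and 3273 in shControl against 3120, 3064 and 3227 in shRNF25 (interval of the log2 difference −0.16 to 0.50). SLC12A4 (KCC1) read 849.0, 1244 and 1167 against 1261, 1224 and 1308 (−0.10 to 0.57). Both were lowest in shControl replicate 1 and overlapped between groups. SLC12A5 (KCC2) had an interval of −0.58 to 0.63. SLC12A8 and SLC12A9 had intervals of −0.26 to 0.31 and −0.07 to 0.78.

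Among sodium-coupled sugar, vitamin and osmolyte carriers, the called member was at the detection floor in the control cells. SLC5A7 (chr2:107986523-108013994), the high-affinity choline transporter of cholinergic neurons, had 1, 0 and 0 reads in shControl and 16, 16 and 20 in shRNF25. It was at least 5.03-fold higher in shRNF25, against a floor of 3 reads per library (limma adjusted p = 0.000837), and passed the filter only through shRNF25. SLC5A6, the multivitamin transporter for biotin and pantothenate, was the most abundant SLC5 member and overlapped between groups, at 1186, 1649 and 1534 against 1525, 1595 and 1812 (interval −0.14 to 0.51). SLC5A3, which imports the osmolyte myo-inositol, read 1155, 1077 and 1189 in shControl and 1541, 1336 and 1440 in shRNF25. All shRNF25 libraries were above the controls, with a log2 fold change of 0.33 (interval 0.09 to 0.57, limma adjusted p = 0.0528). That p was 0.0143 without shControl replicate 1, 0.0497 without shControl replicate 3, and 0.114 to 0.230 with any other single library left out.

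The renal glucose carriers were close to absent. SLC5A2 (SGLT2), which recovers most filtered glucose, had 0, 6 and 0 reads in shControl and 2, 3 and 5 in shRNF25. SLC5A1 (SGLT1), its high-affinity partner further along the tubule, had 4, 8 and 2 reads and then 15, 15 and 9, with every shRNF25 library above every control library at a depth under the filter. Of the other untested SLC5 genes, SLC5A4, SLC5A5, SLC5A9 and SLC5A11 each had between 0 and 6 reads in any library.

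Sodium-proton exchangers extrude acid at the plasma membrane or set the pH of organelles, and no SLC9 member was called. SLC9A2 (NHE2), an apical exchanger of epithelia, read 269.7, 232.9 and 343.2 and then 377.2, 413.7 and 376.5 (0.48, interval 0.12 to 0.84, limma adjusted p = 0.0594). Its adjusted p was 0.0451 without shControl replicate 1, 0.0125 without shControl replicate 3, and 0.145 to 0.203 with any other single library left out. SLC9A3 (NHE3), the brush-border exchanger of the proximal tubule, overlapped, at 80.7, 196.0 and 187.8 against 210.5, 200.4 and 184.0 (interval −0.23 to 1.14). The control library apart from the rest was again shControl replicate 1, and 41.9% of the SLC9A3 exon bases are shared with another gene on the same strand. SLC9A7, of the trans-Golgi network, read 2688, 2294 and 2821 against 2307, 2285 and 2323 (interval −0.42 to 0.08), a mean level of 259 and 230 per kilobase. SLC9A5 and SLC9A8 had log2 fold changes of −0.02 and −0.13, and SLC9A4 and SLC9A9 had at most 5 reads in any library.

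**Figure D3:**
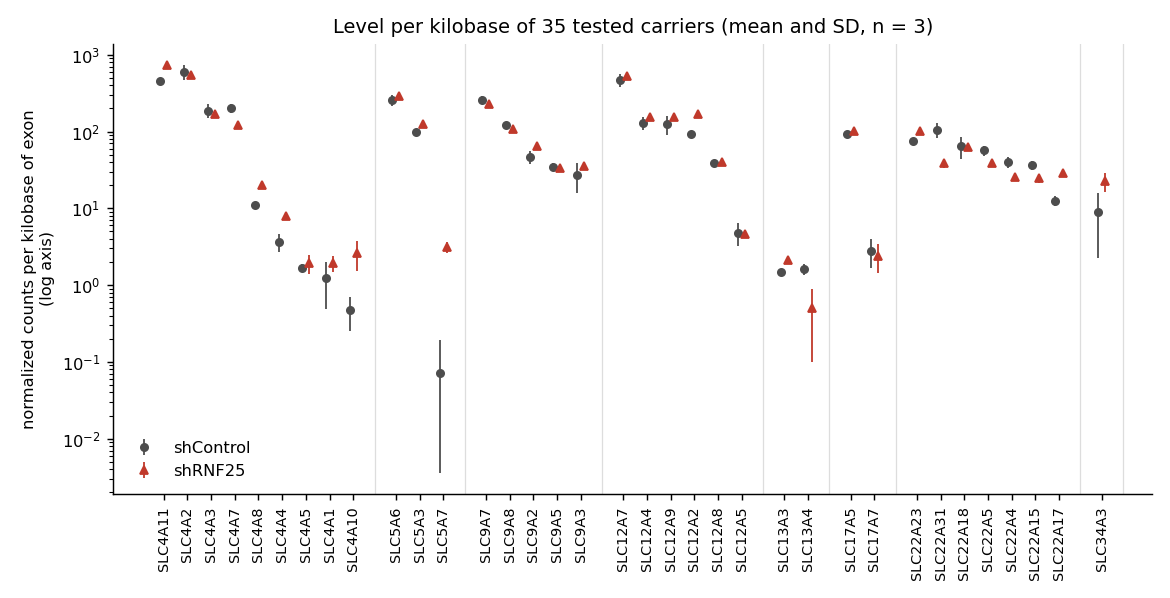
Mean level per kilobase of exon (log axis, SD bars over 3 libraries) of 35 of the 39 tested members in shControl (circles) and shRNF25 (triangles), grouped by family. A lower bar is cut where the SD reaches the mean, as for SLC5A7 in shControl. SLC4A11, SLC4A2 and SLC12A7 lie at the top, and SLC4A10 and SLC5A7 at the bottom in shControl.

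Within SLC22, the carriers of organic cations, anions and carnitine, 2 members were called lower and 1 higher, and SLC22A31 fell most. SLC22A31 (chr16:89195761-89201664), an orphan carrier without an established substrate, read 227.7, 348.8 and 252.6 normalized counts in shControl and 84.7, 107.1 and 108.7 in shRNF25. The groups were well apart, with a log2 fold change of −1.44 (SE 0.193, limma adjusted p = 0.00118). SLC22A17 (chr14:23346306-23352912), described as a receptor for lipocalin-2, moved the other way. Its counts were 48.6, 63.6 and 49.6 in shControl and 115.7, 133.0 and 123.0 in shRNF25 (log2 fold change 1.19, SE 0.178, limma adjusted p = 0.00196).

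The carnitine carrier SLC22A5 (OCTN2, chr5:132369752-132395614) and the ergothioneine carrier SLC22A4 (OCTN1, chr5:132294443-132344206) are neighbours, 25.5 kb apart. SLC22A4 read 88.4, 112.9 and 124.1 in shControl and 65.6, 62.8 and 78.2 in shRNF25, and was called lower (log2 fold change −0.64, SE 0.190, limma adjusted p = 0.0410). This call was lost when any library other than shControl replicate 1 was left out, with limma adjusted p between 0.0804 and 0.159. SLC22A5 read 654.4, 672.0 and 848.3 and then 480.2, 543.9 and 483.3, a decrease without overlap that passed the test but not the 1.5-fold limit (−0.52, SE 0.135, limma adjusted p = 0.0242). Leaving out any shRNF25 library brought its adjusted p to between 0.0643 and 0.114. Per kilobase, the pair summed to 97.0 ± 14.4 in shControl and 64.9 ± 2.60 in shRNF25 (SD, n = 3). Of the 50-base stretches of SLC22A4, 1.3% also occur in another gene, and 8.74% of its exon bases lie under a gene on the other strand.

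A further pair of SLC22 members passed the test below 1.5-fold. SLC22A23, an orphan carrier and the most abundant of the family by level per kilobase in shRNF25, read 653.3, 649.5 and 686.4 in shControl and 942.2, 895.8 and 877.9 in shRNF25 (0.45, SE 0.103, limma adjusted p = 0.0147). With any single shRNF25 library left out, its adjusted p lay between 0.0706 and 0.0922. SLC22A15, a carrier related to the carnitine transporters, read 202.3, 161.1 and 215.9 and then 150.3, 123.8 and 117.2 (−0.56, SE 0.171, limma adjusted p = 0.0456). Its adjusted p was 0.0900 without shControl replicate 3 and between 0.0741 and 0.182 with any single shRNF25 library left out. SLC22A2 (OCT2), the basolateral cation carrier of the proximal tubule, had at most 2 reads in any library. SLC22A13, a urate and nicotinate carrier, had 10, 9 and 10 reads in shControl and 8, 7 and 3 in shRNF25. Every shRNF25 library was below every control library, under the filter. SLC22A18 overlapped between groups (−0.49 to 0.47), and SLC22A3, SLC22A11, SLC22A14 and SLC22A16 were not tested.

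The dicarboxylate, sulfate and phosphate carriers were at low levels throughout. SLC13A4 (chr7:135681237-135729258), a sulfate carrier known from placenta, had 10, 12 and 14 reads in shControl and 8, 4 and 1 in shRNF25, and was called lower (log2 fold change −1.70, SE 0.526, limma adjusted p = 0.0480). It passed the filter only through shControl, so that its difference was partly fixed by the filter. Without the filter its limma adjusted p was 0.0711. The call was also lost without shControl replicate 2 or 3 or without shRNF25 replicate 2 or 3, with limma adjusted p from 0.1002 to 0.137. SLC13A3 (NaDC3), the basolateral dicarboxylate carrier of the proximal tubule, had 8, 9 and 8 reads in shControl and 14, 15 and 13 in shRNF25. Its groups were apart, and the interval of the log2 difference was −0.15 to 1.14. SLC13A3 passed the filter only through shRNF25, so that this separation was partly fixed by the filter. SLC13A1, the renal sulfate carrier, had 3, 0 and 0 reads and then 0, 1 and 0, while SLC13A2 and SLC13A5 had at most 6 reads in any library.

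Renal phosphate recovery runs through SLC34A1 and SLC34A3. SLC34A3 (NaPi-IIc, chr9:137230757-137236554) read 7.74, 16.4 and 37.8 normalized counts in shControl and 67.4, 38.8 and 50.5 in shRNF25. All shRNF25 values were above the controls, the nearest pair being 37.8 and 38.8, and the test was missed (log2 fold change 1.52, SE 0.482, limma adjusted p = 0.0515). Without shControl replicate 3 its log2 fold change was 2.07 with an adjusted p of 0.00658, and without shControl replicate 1 it was 1.00 with an adjusted p of 0.0577. Leaving out any other single library gave an adjusted p of 0.0866 to 0.190. SLC34A1 (NaPi-IIa) had 4, 3 and 0 reads in shControl and 2, 7 and 5 in shRNF25, and SLC34A2, the form of lung and intestine, had 1, 0 and 1 and then 0, 0 and 0. In SLC17, the lysosomal sialic acid exporter SLC17A5 was at 353.7, 299.6 and 338.9 against 405.5, 321.4 and 367.0 (interval −0.17 to 0.45). SLC17A7, the vesicular glutamate carrier, was at 10.8 to 24.3 and 7.63 to 18.2, and SLC17A9 had at most 2 reads. The proton-coupled drug exporters SLC47A1 (MATE1) and SLC47A2 (MATE2) had 1, 2 and 0 against 2, 2 and 8 reads, and 4, 2 and 3 against 12, 6 and 11 reads. The latter was higher in every shRNF25 library than in every control library, again under the filter. SLC12A3, SLC17A1, SLC17A3, SLC22A6, SLC22A8 and SLC22A12, other classical tubule carriers, were not analysed here.

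In all, 24 members were not tested, the highest with a mean of 8.48 normalized counts, and 9 members had at most 3 reads in every library of both groups. Differences among them were not tested at this depth. In normalized counts, SLC5A1, SLC13A2 and SLC47A2 lay above all controls in every shRNF25 library, and SLC17A9 and SLC22A13 lay below. The share of such genes among all untested genes was not computed. SLC17A9 had 2, 1 and 1 reads in shControl and 1, 1 and 0 in shRNF25. Its groups thus met at 1 read and were separated there only by the scaling of libraries. SLC13A2 had 0, 0 and 0 reads in shControl and 2, 1 and 1 in shRNF25, at the floor in both groups. The tested members varied more among the controls, with a median coefficient of variation of 15.5% in shControl and 5.47% in shRNF25, and it was larger in shControl for 31 of the 39. Over all tested genes the medians were 18.2% and 6.70%. Log2 values of library pairs correlated at 0.976 to 0.988 within shControl and at 0.994 within shRNF25. For each of the 11 called members the exact two-sided permutation test gave p = 0.1, the smallest that 3 against 3 libraries allow.

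The promoter windows of called members are shown because the called members moved in both directions. RefSeq starts (GRCh38.p14) gave windows for 48 of the 63 members and for 10 of the 11 called members, SLC4A11 having none. The 250 bases before the start are printed 5′ to 3′ for 2 members that fell, at chr3:27484385-27484634 (minus strand) and chr16:89201679-89201928 (minus strand), and 2 that rose, at chr5:128083516-128083765 (plus strand) and chr2:107986274-107986523 (plus strand). Capitals mark the core of the hypoxia response element, ACGTG or GCGTG, on either strand.
SLC4A7: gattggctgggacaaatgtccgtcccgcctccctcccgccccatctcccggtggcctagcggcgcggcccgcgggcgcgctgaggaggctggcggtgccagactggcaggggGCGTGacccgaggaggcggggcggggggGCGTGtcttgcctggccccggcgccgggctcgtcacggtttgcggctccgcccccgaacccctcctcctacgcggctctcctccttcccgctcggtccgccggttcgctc
SLC22A31: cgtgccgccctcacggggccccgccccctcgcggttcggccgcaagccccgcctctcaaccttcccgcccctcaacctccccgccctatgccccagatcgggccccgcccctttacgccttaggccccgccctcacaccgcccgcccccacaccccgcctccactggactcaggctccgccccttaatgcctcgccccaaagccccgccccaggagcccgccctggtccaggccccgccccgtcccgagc
SLC12A2: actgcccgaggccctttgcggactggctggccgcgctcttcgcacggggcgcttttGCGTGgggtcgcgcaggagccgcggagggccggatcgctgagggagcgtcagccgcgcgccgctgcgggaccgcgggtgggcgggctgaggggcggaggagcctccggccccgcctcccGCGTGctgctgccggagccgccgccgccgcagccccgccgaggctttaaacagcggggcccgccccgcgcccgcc
SLC5A7: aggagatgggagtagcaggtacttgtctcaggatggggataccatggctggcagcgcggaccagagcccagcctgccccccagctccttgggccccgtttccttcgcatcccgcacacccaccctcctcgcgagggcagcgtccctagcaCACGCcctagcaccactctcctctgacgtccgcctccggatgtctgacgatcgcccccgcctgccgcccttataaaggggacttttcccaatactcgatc
The first 3 windows were rich in G and C, at 76%, 76.4% and 79.6%, against a median of 58% over all 35116 windows, and that of SLC5A7 was at 64%. SLC4A7 has another window, not printed, at chr3:27456779-27457028. That window was at 34.8% and held no hypoxia core and no GC box. The hypoxia core occurred in 2 of 5 windows of members called lower (40%), 4 of 12 of members called higher (33.3%) and 17 of 31 of tested members not called (54.8%), against 43.2% of all windows. The GC box GGGCGG, on either strand, occurred in 4 of 5 (80%), 5 of 12 (41.7%) and 22 of 31 (71.0%), against 42.6% of all windows, and 12 times in the window of SLC22A31. The NF-κB consensus site, searched because the study concerns that pathway, occurred in 0 of 5, 0 of 12 and 3 of 31 windows (9.68%), against 5.21% of all windows. Several windows belong to alternative starts of a single gene and overlap. These matches describe letters in a fixed window and say nothing of binding.

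Genes that act with these carriers were examined as 9 lists of 100 genes, 69 of them tested, chosen by function with earlier results of these data known. Of the 69, 12 were lower (17.4%) and 4 higher (5.80%), against 7.1% and 8.65% of all tested genes, and their median log2 fold change was −0.07. The count of 12 was 7 without shRNF25 replicate 2 and 7 without shRNF25 replicate 3. In the sodium pump, which supplies the gradient for these carriers, 2 of 5 tested genes were called lower. The beta subunit gene ATP1B1 went from 6220, 5199 and 6683 normalized counts to 3435, 3434 and 3676 (log2 fold change −0.77, limma adjusted p = 0.00219). FXYD5, a modulator of the pump, read 5202, 2262 and 2572 and then 1568, 1799 and 1598 (−0.92, limma adjusted p = 0.0380), and this p lay between 0.0843 and 0.132 with any single shRNF25 library left out. Without shControl replicate 1, the highest library, its log2 fold change was −0.55, under 1.5-fold.

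**Figure D4:**
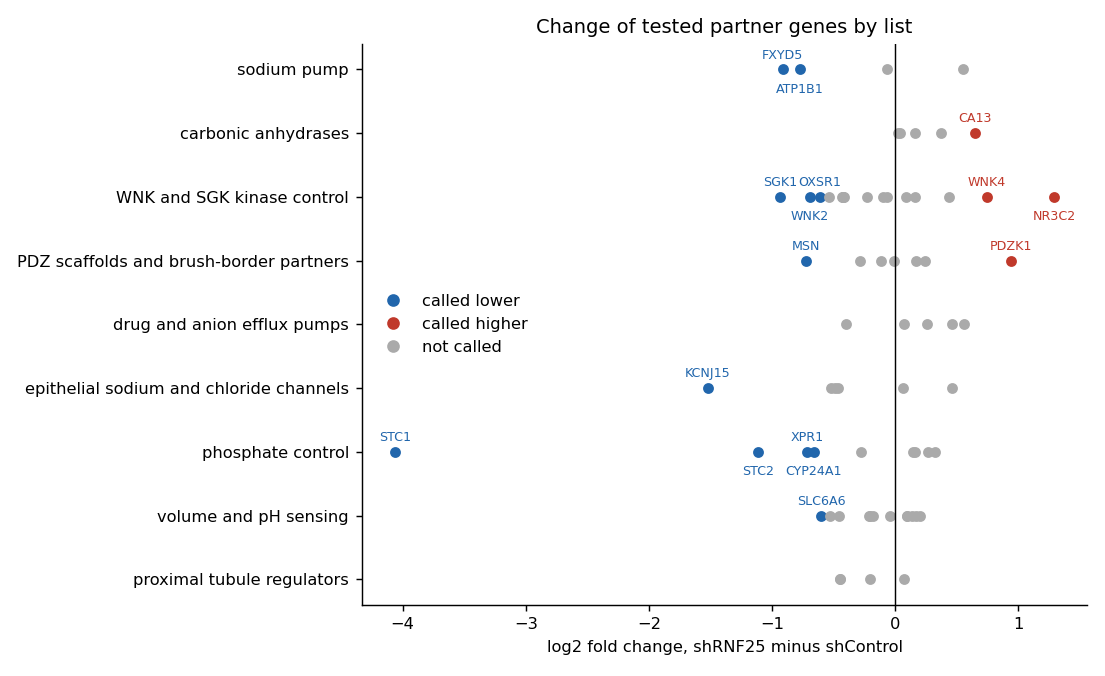
Log2 fold change (shRNF25 minus shControl) of 68 of the 69 tested partner genes, in 9 rows by list, with called genes colored and named. STC1 lies lowest at −4.07, and NR3C2 is the highest of the 4 genes called higher at 1.29.

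The WNK, SPAK and SGK kinases switch the SLC12 cotransporters and other salt carriers. Of 16 tested genes of that list, 3 were called lower and 2 higher. SGK1, the serum- and aldosterone-induced kinase, read 405.7, 319.1 and 391.8 in shControl and 145.8, 205.9 and 241.2 in shRNF25 (−0.93, limma adjusted p = 0.00986). OXSR1, which phosphorylates NKCC1, and WNK2 had log2 fold changes of −0.61 and −0.69 (limma adjusted p = 0.00747 and 0.00315). Without shControl replicate 1 that of OXSR1 was −0.49, under 1.5-fold. WNK4, a regulator of distal salt transport, rose from 833.5, 927.5 and 1094 to 1636, 1554 and 1566 (0.74, limma adjusted p = 0.00320). NR3C2, the mineralocorticoid receptor, rose from 47.5, 36.9 and 51.8 to 103.0, 113.6 and 119.1 (1.29, limma adjusted p = 0.00184).

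Among genes that control phosphate, 4 of 9 tested genes were called lower and none higher, against 7.1% and 8.65% of all tested genes. Smaller changes that passed the adjusted p below 1.5-fold are not counted here. STC1, a secreted stanniocalcin that acts on calcium and phosphate transport, read 692.0, 384.8 and 459.8 in shControl and 31.0, 28.6 and 26.7 in shRNF25 (−4.07, SE 0.219, limma adjusted p = 1.06e-05), the largest decrease of the partner genes. Its relative STC2 fell from 14702, 20171 and 21995 to 9419, 8394 and 8103 (−1.12, limma adjusted p = 0.00143). XPR1, the phosphate exporter, and CYP24A1, which degrades active vitamin D, had log2 fold changes of −0.72 and −0.66 (limma adjusted p = 0.0219 and 0.0200). With any single shRNF25 library left out, the p of XPR1 was 0.0770 to 0.0849, and without shControl replicate 1 its log2 fold change was −0.50, under 1.5-fold. The p of CYP24A1 was 0.0539 to 0.0993 without shControl replicate 2 or shRNF25 replicate 2 or 3.

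Of 7 tested scaffold genes, PDZK1, which anchors brush-border carriers, rose from 96.2, 80.0 and 105.8 to 176.8, 181.0 and 183.0 (0.94, limma adjusted p = 0.00340). The membrane-cytoskeleton linker MSN fell from 26459, 19515 and 19842 to 13067, 13561 and 12798 (−0.73, limma adjusted p = 0.00572), and its log2 fold change was −0.58 without shControl replicate 1, just under 1.5-fold. In the other lists, the potassium channel gene KCNJ15 (−1.52, limma adjusted p = 0.0309) and the taurine carrier SLC6A6 (−0.60, limma adjusted p = 0.0105) were called lower, and the cytosolic carbonic anhydrase CA13 (0.65, limma adjusted p = 0.0422) higher. The adjusted p of SLC6A6 was 0.0553 without shRNF25 replicate 2 and 0.0590 without shRNF25 replicate 3, and its log2 fold change was −0.47 without shControl replicate 3, under 1.5-fold. That of KCNJ15 was 0.0593 to 0.122 with shControl replicate 3 or any single shRNF25 library left out, and that of CA13 was 0.0599 to 0.177 with any single library other than shControl replicate 1 left out. None of the 5 tested efflux pumps and none of the 4 tested transcriptional regulators of the proximal tubule was called.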

How the data were processed

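RNA-seq was analysed in 6 libraries of SW839, 3 per group, assigned by title, genotype label and library name. According to the methods, ribosomal RNA was depleted and a stranded kit was used. The submitters' processing notes name fastp, HISAT2, HTSeq and GRCh38, without roles. Annotation, strand setting and counting options were not given in the sources used here, so reads of a gene and an overlapping gene may be split or shared. The authors deposited a normalized count per gene and library, a signal that divides counts by a size factor. In each library 100% of values were whole multiples of the value of 1 read, with a largest deviation of 0.000120 reads (18647460 to 19943154 reads per library). No correction for length or GC content was visible.

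Values were tested as log2(normalized count + 1) with limma 3.58.1 (lmFit, eBayes with trend, R 4.3.3) over the 16554 genes with at least 10 in at least 3 libraries, with Benjamini-Hochberg adjustment over all of them. Fold changes are on that scale, which understates those of low genes. Calls used the study's criteria, an adjusted p under 0.05 with 1.5-fold or more change. Since the deposited values were not raw counts, a count test was an alternative only (edgeR 4.0.16 and DESeq2 1.42.0 on the recovered reads). On simulated data with known changes the limma script was tested before use. The simulation gave both groups the same spread, so it could not check the test under the unequal spread of these libraries. Single values were compared by exact two-sided permutation tests (scipy 1.17.1). Genes with at most 3 reads in every library of a group were treated as at the floor, which covers counting error only. Levels per kilobase divide normalized counts by the union exon length of GENCODE 29. Role sums and ratios have no test. Promoters are the 250 bases before RefSeq starts.

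The members and all gene lists were chosen with earlier results of these data known. The text names every called member, the most abundant member of each family, a list of classical renal carriers whatever their values, RNF25 and the called partner genes (up to 4 per list). Some genes of these lists are not reported here. Any other gene was picked with its values in view. Alternatives comprised other pseudocounts, filters, scalings, tools and weights, a replicate block and the omission of each library. The counts and values of partner genes under these settings were added after seeing the data.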

Additional observations from a re-analysis of the deposited data

How the results depend on the processing

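Fold changes of SLC4A4, SLC4A7, SLC4A8, SLC4A11, SLC12A2, SLC22A17 and SLC22A31 kept their direction and an adjusted p below 0.05 in 17 of 17 alternatives, SLC4A10 in 16 of 16 and SLC5A7 in 15 of 15. SLC22A4 kept it in 8 of 17 (adjusted p up to 0.159) and SLC13A4 in 5 of 15 (up to 0.140). SLC4A10, SLC5A7 and SLC13A4 were not tested with the filter of at least 50 in at least 3 libraries. SLC5A7 and SLC13A4 were also not tested with that of a mean of at least 10 over all 6 libraries. SLC4A10 and SLC5A7 passed the filter only through shRNF25 and SLC13A4 only through shControl, and the omissions of a library kept that filter's genes. Most of their alternatives thus share that selection. Without the filter the limma adjusted p of SLC4A10, SLC5A7 and SLC13A4 was 0.0111, 0.000801 and 0.0711. The count of members called lower, 4, was 2 with a fold change of at least 2, without the filter on low values, with rescaling on the median ratio and with library weights. Leaving out each library gave 2 to 5 members lower, with 2 without shControl replicate 3, shRNF25 replicate 2 or shRNF25 replicate 3, and 7 to 9 higher. The count of members called higher, 7, was 4 with a fold change of at least 2. Among partner genes, that limit left 3 of 12 lower and 1 of 4 higher, and leaving out each library gave 7 to 13 lower and 3 to 6 higher. The sign turned for SLC4A2 with quantile normalization (0.0486) and for SLC4A3 without shControl replicate 2, where leaving out each library gave −0.285 to 0.00398. The cause was not tested. Of partner genes, MSN, OXSR1 and SLC6A6 stayed past the adjusted p with quantile normalization but had log2 fold changes of −0.42, −0.50 and −0.48, under 1.5-fold. The edgeR and DESeq2 tests each called 3 members lower, and 7 and 8 higher.

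Replicates of the groups share only a number: deviations of same-numbered libraries correlated at −0.0638, −0.0874 and 0.0471. With the number as a replicate block, 3 members were called lower and 8 higher, the adjusted p of SLC22A4 was 0.0528 and that of SLC34A3 0.0214. With 3 libraries per group and no replicate culture named, 24 carriers under the filter were tested only in the alternative without it, and with 2 libraries left in a group the spread was taken from the fit to both groups.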
